A study of Mus musculus with 19 samples.

Results

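Hmgcs1, Mvk, Mvd, Idi1, Sqle, Lss and Dhcr7 code for enzymes of cholesterol synthesis, and they were taken by gene symbol from a count table of 14443 genes. All 7 had a row of counts in each of 19 libraries. None of the 7 is a gene of cholesterol uptake, and uptake is covered by a separate list of genes. The libraries were prepared, without strand information, from the polyadenylated RNA of dissected locus coeruleus, a small nucleus of the brainstem with noradrenergic neurons that keep the animal awake. CnB1KO_SD6 (n = 5) were mice of the ABC-CnB1KO line, labelled as lacking CnB1 (calcineurin's regulatory subunit; calcineurin is a calcium-activated phosphatase), deprived of sleep for 6 h, and CnB1KO_S6 (n = 5) were mice of that line that slept normally. WT_SD6 (n = 5) were sleep-deprived mice of the ABC-Ctrl line, and WT_S6 (n = 4) were ABC-Ctrl mice that slept normally. By the protocol, brains of all groups were taken 4 weeks after injection of AAV-hSyn-Cre, a virus whose Cre recombinase is driven by a human synapsin promoter which acts in neurons and not in the other cell types of the dissected tissue. The sources used here do not give age, sex or genetic background. Values of single libraries are given in the order of the library numbers.

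The study asked how calcineurin in the locus coeruleus bears on sleep homeostasis, and the comparisons here are deprivation in each genotype, genotype in each sleep state, their interaction and the 2 averages. Library totals ran from 3887298 to 7903253 counts, with CnB1KO_S6 library 13 the shallowest. Levels are in CPM, that is counts divided by the library total after a TMM correction for composition and put on 1 common scale, and SD is between libraries. Fold changes (log2) and adjusted p come from edgeR's quasi-likelihood test over all genes, 2-sided, and a gene passed at an adjusted p under 0.05. That test gives no SE, so the SE here is the size of the log2 fold change divided by the square root of the test's F. It does not match the p-value exactly for every gene, Idi1 among them, and intervals of 2 SE are approximate. Ppp3r1, which codes for CnB1, averaged 133 ± 6.73 and 129 ± 13.2 CPM in CnB1KO_SD6 and CnB1KO_S6 (SD, n = 5 each), against 152 ± 10.9 CPM in WT_SD6 (SD, n = 5) and 161 ± 4.08 CPM in WT_S6 (SD, n = 4). It was 1.2-fold lower in CnB1KO averaged over sleep states (adjusted p = 0.00758), and the log2 difference of -0.26 became -0.29 with the oligodendrocyte marker score as covariate, where the call was lost (adjusted p = 0.0575). Within a sleep state Ppp3r1 did not pass, at log2 -0.32 after sleep (adjusted p = 0.104) and -0.20 after deprivation (adjusted p = 0.177). All 8 noradrenergic markers, among them Th and Dbh, were detected in every group, and their mean log2 CPM ran from 5.99 to 6.93 over the libraries other than WT_SD6 library 8, which had 5.38.

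Cells make cholesterol from acetyl-CoA in a long chain of reactions, first through mevalonate to isoprenoid units, then through squalene to the ring of lanosterol, and last through trimming of that ring to cholesterol. The genes of the chain share a transcription factor, SREBP2, which is released when membranes hold little sterol and binds sterol regulatory elements, together with the factors NF-Y, at CCAAT boxes, and SP1, at GC boxes. Brain cholesterol is made within the brain, since lipoproteins do not cross the barrier from blood. Much of it lies in myelin, the membrane of oligodendrocytes, and in adult brain astrocytes supply neurons.

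Promoter windows from RefSeq (GRCm38.p6), running from 250 bases before to 50 bases after a transcript start, were given for 6 of the 7 genes and not for Sqle, with 3 starts for Dhcr7. They were searched on both strands for 4 motifs, namely the sterol regulatory element core TCACNCCAC, the CCAAT box CCAAT, the E-box CACGTG and the GC box GGGCGG. These motifs share no bases in the windows printed here. The windows of Hmgcs1 and of the 4 genes that fell with deprivation are shown, with CCAAT boxes and the sterol element core in capitals, 5′ to 3′ along the strand of the gene.

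Hmgcs1, chr13:119690101-119690400, plus strand: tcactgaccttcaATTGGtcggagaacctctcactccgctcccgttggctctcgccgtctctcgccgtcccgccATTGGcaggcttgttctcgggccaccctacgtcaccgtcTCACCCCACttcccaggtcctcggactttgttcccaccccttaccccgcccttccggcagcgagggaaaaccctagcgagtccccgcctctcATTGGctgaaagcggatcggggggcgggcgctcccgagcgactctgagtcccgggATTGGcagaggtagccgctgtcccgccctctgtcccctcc

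Mvk, chr5:114444019-114444318, plus strand: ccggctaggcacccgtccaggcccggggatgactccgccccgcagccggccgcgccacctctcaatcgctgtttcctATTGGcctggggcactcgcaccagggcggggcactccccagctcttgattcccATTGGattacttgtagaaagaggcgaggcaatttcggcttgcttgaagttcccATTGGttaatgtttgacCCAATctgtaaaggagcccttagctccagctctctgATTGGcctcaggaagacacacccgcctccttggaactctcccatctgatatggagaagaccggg

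Mvd, chr8:122443373-122443672, minus strand: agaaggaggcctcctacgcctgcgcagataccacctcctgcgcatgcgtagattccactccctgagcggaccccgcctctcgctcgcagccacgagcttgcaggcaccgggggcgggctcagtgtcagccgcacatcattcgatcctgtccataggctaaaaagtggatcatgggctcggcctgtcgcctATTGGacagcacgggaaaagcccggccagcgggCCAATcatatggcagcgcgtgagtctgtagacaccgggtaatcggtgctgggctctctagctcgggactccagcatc

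Lss, chr10:76531355-76531654, plus strand: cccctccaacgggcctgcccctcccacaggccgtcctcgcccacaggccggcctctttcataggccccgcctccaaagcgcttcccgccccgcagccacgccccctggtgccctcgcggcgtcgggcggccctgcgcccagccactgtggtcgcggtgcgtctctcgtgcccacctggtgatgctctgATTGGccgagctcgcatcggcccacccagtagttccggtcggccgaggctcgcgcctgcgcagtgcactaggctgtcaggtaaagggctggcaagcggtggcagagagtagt

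Dhcr7, start 3, chr7:143829964-143830263, plus strand: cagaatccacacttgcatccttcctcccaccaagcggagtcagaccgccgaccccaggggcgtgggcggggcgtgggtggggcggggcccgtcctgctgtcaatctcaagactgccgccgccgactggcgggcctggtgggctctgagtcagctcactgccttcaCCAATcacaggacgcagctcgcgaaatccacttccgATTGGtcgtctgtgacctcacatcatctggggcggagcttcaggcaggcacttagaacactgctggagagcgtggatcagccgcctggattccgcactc

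The sterol element core stood once in the Hmgcs1 window, as TCACCCCAC at bases 114 to 122, and in no other window of these genes, while 1.24% of 32851 mouse promoter windows held it. CCAAT boxes numbered 4 in the Hmgcs1 window, 5 in that of Mvk, 2 each in those of Mvd, Idi1 and Dhcr7 start 3, and 1 in that of Lss. The windows of Dhcr7 starts 1 and 2 held 0 CCAAT boxes, and that of start 2 also held 0 GC boxes. At least 1 CCAAT box was found in 37.4% of all windows. A GC box stood in 1 window or more of each of the 6 genes and in 35.7% of all windows. An E-box was found in the window of Dhcr7 start 2 alone, against 7.15% of all windows. A match is a description of letters, and its absence says that these letters are not in that window.

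The first reactions of the mevalonate stage are represented by Hmgcs1, whose enzyme joins acetyl-CoA units to HMG-CoA, a precursor of mevalonate. The gene (ENSMUSG00000093930.2) lies on chromosome 13 from 119690379 to 119708260 of GRCm38, on the plus strand. Hmgcs1 had 145, 140, 150, 162 and 162 CPM in CnB1KO_SD6, against 160, 160, 203, 147 and 165 CPM in CnB1KO_S6. In WT it had 159, 145, 127, 155 and 139 CPM after deprivation, against 167, 175, 148 and 155 CPM after sleep. The groups overlapped in both genotypes, and the highest value belonged to CnB1KO_S6 library 13. Averaged over genotypes, the Hmgcs1 difference was -0.15 (SE 0.057) on the log2 scale and did not pass (adjusted p = 0.176). Over all libraries the log2 count of Hmgcs1 followed the log2 library total with a slope of 0.63, against a median slope of 1.14 over all genes, so its CPM was higher in shallow libraries. Slopes were also below that median for Sqle (0.80), Mvd (0.89), Dhcr7 (0.96), Lss (0.98) and Mvk (1.01), and above it for Idi1 (1.18). Of the exon bases of Hmgcs1, 12.1% overlap the antisense gene Gm48342, whose reads cannot be told apart without strand.

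Mvk codes for mevalonate kinase, which adds the first phosphate to mevalonate, and fell after deprivation. Its gene (ENSMUSG00000041939.14) lies on chromosome 5 from 114444269 to 114460591, on the plus strand. Levels of Mvk were 26.5, 28.9, 32.4, 32.0 and 31.7 CPM in CnB1KO_SD6, against 35.1, 37.2, 35.2, 38.4 and 33.7 CPM in CnB1KO_S6. In WT_SD6 they were 29.99, 28.7, 26.4, 28.01 and 30.1 CPM, against 34.99, 38.9, 32.2 and 30.5 CPM in WT_S6. In each genotype every deprived library lay below every sleeping one, and across genotypes 7 of 10 deprived libraries lay below all 9 sleeping ones. Mvk was 1.19-fold lower after deprivation averaged over genotypes (log2 -0.25, SE 0.052, adjusted p = 0.00788). With the score of oligodendrocyte markers, 3 of 12 of which fell as well, as covariate, this call and those of Mvd, Lss and Dhcr7 were lost (adjusted p of 0.101 to 0.246). Here and below, a lower level in bulk tissue may be fewer cells of a type or less RNA per cell, which cannot be told apart.

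Mvd codes for mevalonate diphosphate decarboxylase, which turns mevalonate diphosphate into isopentenyl diphosphate. Its gene (ENSMUSG00000006517.5) lies on chromosome 8 from 122433601 to 122443422, on the minus strand. Mvd had 30.6, 28.8, 28.5, 31.6 and 32.3 CPM in CnB1KO_SD6, against 32.7, 33.3, 37.9, 34.4 and 40.2 CPM in CnB1KO_S6. In WT it had 30.4, 27.5, 27.6, 24.9 and 30.4 CPM after deprivation, against 37.7, 34.3, 33.3 and 28.999 CPM after sleep. The CnB1KO groups did not overlap, whereas in WT the lowest sleeping library, number 4, lay among the deprived ones. Averaged over genotypes Mvd fell 1.18-fold (log2 -0.24, SE 0.057, adjusted p = 0.0184).

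Idi1, the gene of the isomerase that converts isopentenyl diphosphate to its more reactive isomer, had the smallest averaged deprivation difference of the 7. It (ENSMUSG00000058258.14) lies on chromosome 13 from 8885501 to 8892451, on the plus strand. Idi1 had 15.7, 19.3, 20.1, 19.2 and 17.1 CPM in CnB1KO_SD6, against 17.3, 21.8, 17.2, 17.1 and 19.03 CPM in CnB1KO_S6. WT libraries had 17.9, 16.4, 16.5, 14.004 and 18.3 CPM after deprivation, against 17.02, 18.4, 15.9 and 15.9 CPM after sleep. Groups overlapped throughout, and the averaged deprivation difference was -0.01 (SE 0.068) on the log2 scale (adjusted p = 0.99), with an interval of 2 SE from -0.15 to 0.12. The counts of Idi1 are uncertain, since its transcripts match Gm13502 without a difference over 684 bases and Gm35570 at 97.7% over 681 bases. Its counts per kilobase of exon were 1.17 times its FPKM, against 3.19 to 7.02 times for the other 6 genes. Part of its exons, 9.22% of the bases, also overlaps the opposite-strand gene Gm48574.

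Sqle codes for squalene epoxidase, which oxidises squalene as the first step toward the sterol ring and is a control point of the chain. The gene (ENSMUSG00000022351.14) lies on chromosome 15 from 59315077 to 59331192, on the plus strand. Sqle had 111, 112, 116, 123 and 132 CPM in CnB1KO_SD6, against 125, 116, 137, 114 and 133 CPM in CnB1KO_S6. Control libraries had 119, 107, 80.9, 110 and 123 CPM in WT_SD6, against 130, 124, 103 and 108 CPM in WT_S6. The groups overlapped in both genotypes, and the lowest of all was WT_SD6 library 8. Its averaged difference of -0.09 (SE 0.069) on the log2 scale did not pass (adjusted p = 0.587).

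Lss, which codes for lanosterol synthase, the cyclase that folds oxidised squalene into the ring of lanosterol, had the largest deprivation difference of the 7. Its gene (ENSMUSG00000033105.12) lies on chromosome 10 from 76531588 to 76557138, on the plus strand, and shares 3.53% of its exon bases with the antisense gene 4930483K19Rik. Lss had 86.3, 93.1, 82.5, 106 and 105 CPM in CnB1KO_SD6, against 112, 106, 114, 107 and 130 CPM in CnB1KO_S6. In WT it had 101, 90.4, 78.6, 85.5 and 103 CPM after deprivation, against 121, 120, 116 and 105 CPM after sleep. All deprived libraries lay below all sleeping ones within each genotype, but in CnB1KO the nearest pair, deprived library 19 and sleeping library 12, both stood at 106.21 CPM to 2 decimals. Averaged over genotypes Lss fell 1.23-fold (log2 -0.30, SE 0.061, adjusted p = 0.00627), and 9 of 10 deprived libraries lay below all 9 sleeping ones.

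Dhcr7 codes for 7-dehydrocholesterol reductase, which makes cholesterol from 7-dehydrocholesterol in the last step of a branch of the chain. The gene (ENSMUSG00000058454.15) lies on chromosome 7 from 143823145 to 143848410, on the plus strand. Its transcripts match Gm47486 at 98.2% over 226 bases, and those of Sqle match Sdccag8 at 92.9% over 224 bases, shorter stretches than in Idi1. What these matches mean for the counts of Dhcr7 and Sqle was not tested. Dhcr7 had 61.5, 66.5, 63.0, 66.2 and 67.9 CPM in CnB1KO_SD6, against 74.8, 73.1, 76.2, 70.1 and 78.3 CPM in CnB1KO_S6. Among WT libraries it had 68.7, 60.3, 55.02, 58.6 and 63.3 CPM after deprivation, against 70.1, 73.0, 69.8 and 61.4 CPM after sleep. The CnB1KO groups did not overlap, and in WT sleeping library 4 lay among the deprived ones. Dhcr7 fell 1.13-fold averaged over genotypes (log2 -0.18, SE 0.042, adjusted p = 0.0179). By the deposited FPKM its difference was -0.14 on the log2(FPKM + 0.1) scale and did not pass with limma (adjusted p = 0.444).

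**Figure D1:**
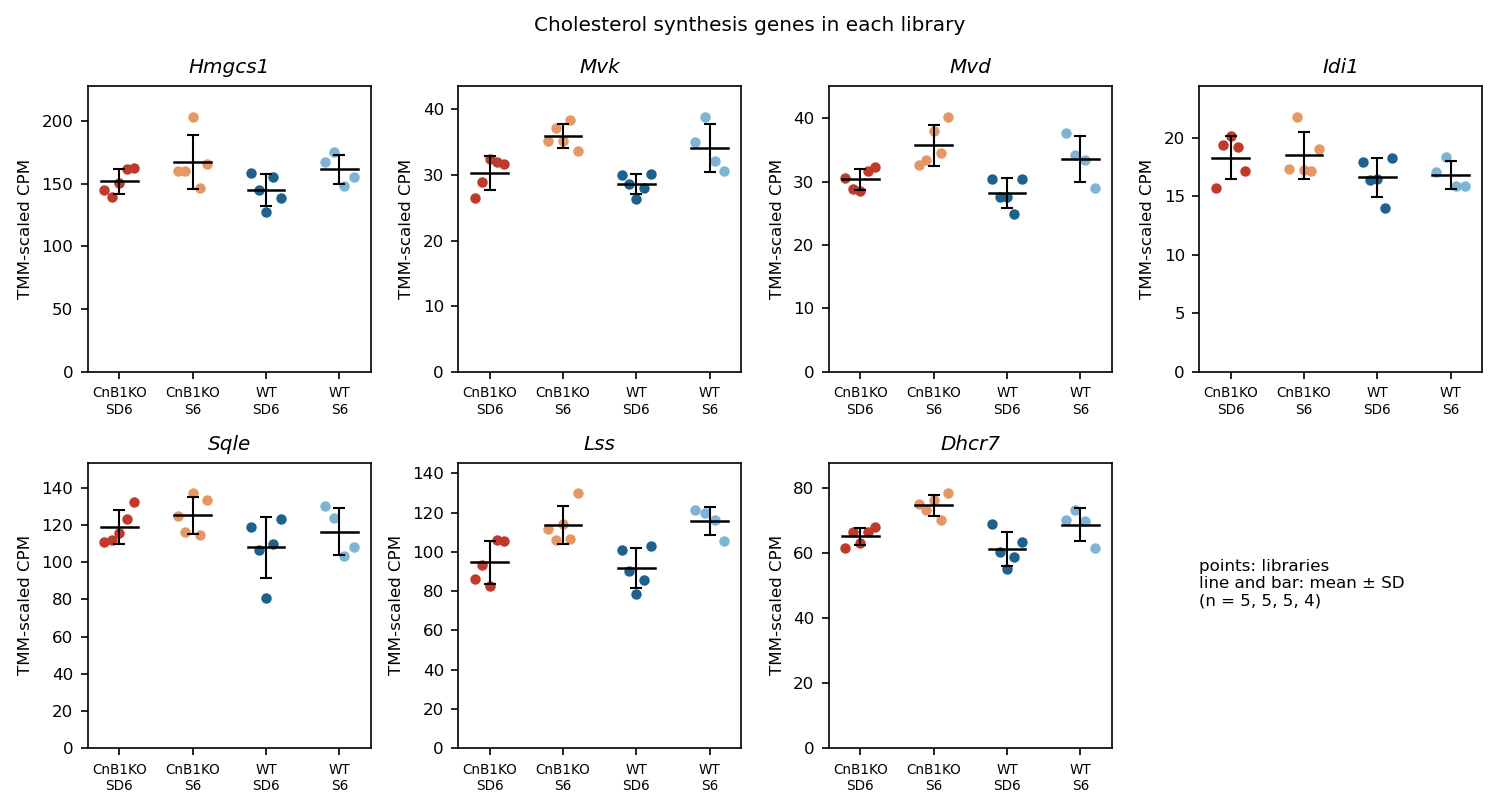
TMM-scaled CPM of the 7 genes (1 panel each) in every library of CnB1KO_SD6, CnB1KO_S6, WT_SD6 and WT_S6, with the mean as a line and the SD as a bar (n = 5, 5, 5 and 4). Within each genotype, though not across genotypes, Mvk and Lss lie lower in deprived than in sleeping libraries without overlap. For Idi1 the deprived and sleeping libraries overlap in both genotypes.

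With deprivation averaged over genotypes, 4 of the 7 enzymes fell, Mvk, Mvd, Lss and Dhcr7, and none rose. Of all 14443 genes 2.13% were called lower and 4.69% in either direction. The median log2 difference was -0.18 over the 7 genes and -0.003 over all genes. All 7 differences were negative, as were 51.6% of those of all genes. With the oligodendrocyte marker score as covariate, whose mean was itself lower after deprivation in both genotypes, 0 of the 7 passed. With the astrocyte marker score Dhcr7 was lost (adjusted p = 0.0595). DESeq2 and limma voom each called the same 4 genes, and each call also held with any 1 of the 19 libraries left out. The highest adjusted p among these was 0.0459 for Dhcr7, 0.0474 for Mvd, 0.0214 for Mvk and 0.0174 for Lss. With the deposited FPKM, Mvk and Mvd passed with limma (adjusted p = 0.0118 and 0.034), and Lss missed the threshold (adjusted p = 0.0611) at a similar size (log2 -0.31). Without a filter on low FPKM Mvd was lost too (adjusted p = 0.0933). Over both genotypes the libraries of all 7 genes overlapped between deprivation and sleep, and 0.187% of all genes were lower without overlap. Below the median of the 9 sleeping libraries lay all 10 deprived ones for Mvk, Mvd, Lss and Dhcr7, 9 for Sqle, 8 for Hmgcs1 and 5 for Idi1. The calls come from the same libraries, so this describes them and adds no further support. The share of all genes with such a position was not computed.

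Within a single genotype, none of the 7 passed with edgeR. In CnB1KO the differences were -0.27 for Lss (SE 0.084, adjusted p = 0.21), -0.25 for Mvk (SE 0.072, adjusted p = 0.153), -0.23 for Mvd (SE 0.078, adjusted p = 0.248) and -0.20 for Dhcr7 (SE 0.058, adjusted p = 0.163), all on the log2 scale. Those of Hmgcs1, Sqle and Idi1 in CnB1KO were -0.13, -0.07 and -0.02. In WT they were -0.33 for Lss (SE 0.088, adjusted p = 0.0741), -0.25 for Mvk (SE 0.075, adjusted p = 0.129), -0.25 for Mvd (SE 0.082, adjusted p = 0.179) and -0.16 for Dhcr7 (SE 0.061, adjusted p = 0.256). Hmgcs1, Sqle and Idi1 stood at -0.16, -0.11 and -0.01 in WT. At an unadjusted p under 0.05, 4 of the 7 genes were lower in CnB1KO and 4 in WT. In either direction, 1400 of 14443 genes had such a p-value in CnB1KO and 1673 in WT. Calls over all genes came to 0.692% in CnB1KO and 1.14% in WT, in either direction. DESeq2 called Lss in WT (adjusted p = 0.0281) and none in CnB1KO, and limma voom called none in either. Mvk, Mvd, Lss and Dhcr7 were lower without overlap in CnB1KO, 4 of 7 where 1.28% of all genes were, and Mvk and Lss in WT, 2 of 7 where 2.1% of all genes were.

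The deprivation differences of the 7 genes in CnB1KO and WT lay close to each other, and their interaction, the CnB1KO difference minus the WT difference, was tested directly. On the log2 scale it was 0.07 for Lss, 0.03 for Sqle, 0.02 for Hmgcs1, 0.02 for Mvd, 0.004 for Mvk, -0.005 for Idi1 and -0.03 for Dhcr7. No gene of the table passed with edgeR (0.0% called), 287 of 14443 had an unadjusted p under 0.05, and none of these was among the 7. DESeq2 called 1 gene and limma voom 0, again none of the 7. The interval of 2 SE ran from -0.18 to 0.31 for Lss, from -0.20 to 0.21 for Mvk and from -0.20 to 0.14 for Dhcr7. The interval for Lss thus still holds a difference between genotypes as large as its averaged deprivation difference.

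**Figure D2:**
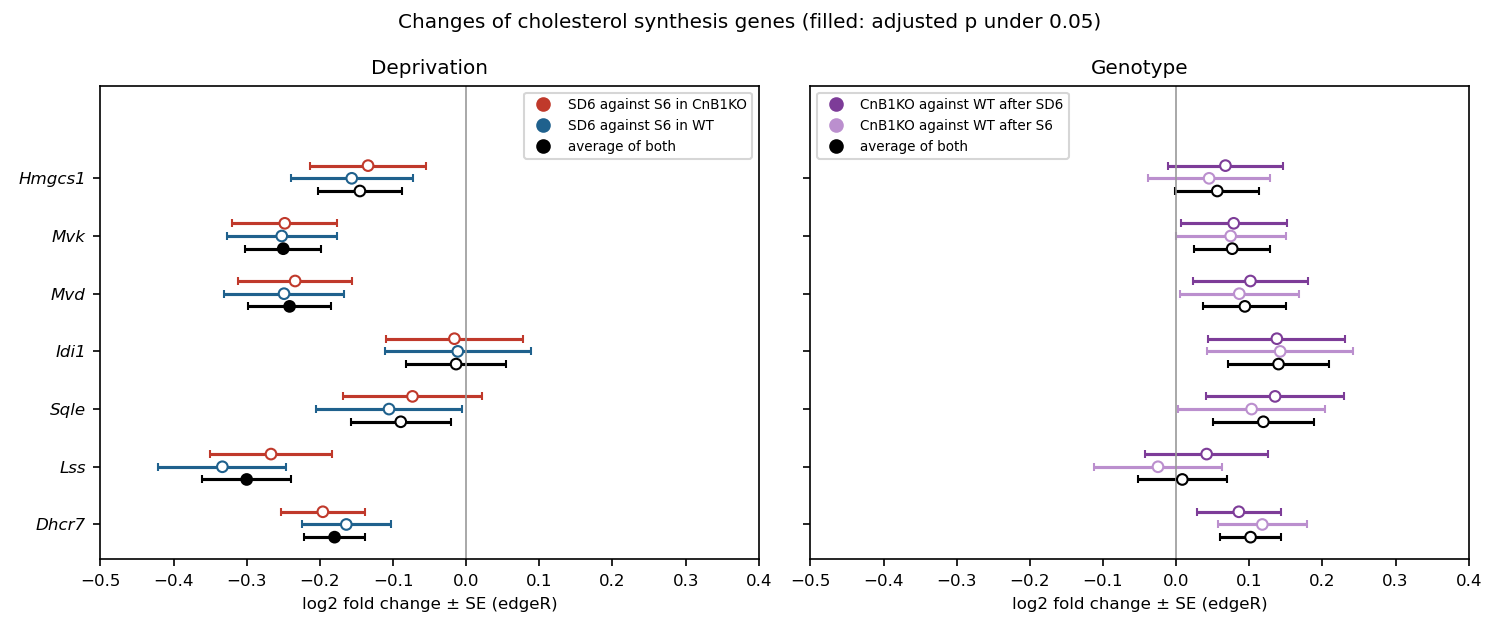
Log2 fold changes of the 7 genes from edgeR with SE bars, SD6 against S6 on the left and CnB1KO against WT on the right, by subgroup and as the average of both, filled where the adjusted p is under 0.05. Filled points are the averaged deprivation differences of Mvk, Mvd, Lss and Dhcr7, from -0.30 to -0.18, and no genotype difference is filled.

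Between genotypes none of the 7 enzymes passed with edgeR in any comparison. Averaged over sleep states the log2 differences, CnB1KO against WT, were 0.14 for Idi1 (SE 0.068, adjusted p = 0.227), 0.12 for Sqle (SE 0.069, adjusted p = 0.301), 0.10 for Dhcr7 (SE 0.042, adjusted p = 0.156) and 0.09 for Mvd (SE 0.057, adjusted p = 0.322). Mvk, Hmgcs1 and Lss stood at 0.08, 0.06 and 0.01. All 7 were positive, with a median of 0.09 against 0.007 over all genes, while 47.5% of all genes were negative and 3.09% were called. In the same comparison 0 of 9 fatty acid synthesis genes, 0 of 12 oligodendrocyte and 0 of 7 endothelial markers were negative. Negative differences were found for 3 of 12 other enzymes of the chain and 2 of 11 astrocyte markers. Dhcr7 was the 1 gene of the 7 with an unadjusted p under 0.05, among 3330 genes. After deprivation the 7 differences ran from 0.04 for Lss to 0.14 for Idi1, with 0.132% of all genes called. After sleep they ran from -0.02 for Lss to 0.14 for Idi1, with 0.0485% called. None of the 7 had an unadjusted p under 0.05 in either sleep state, and DESeq2 and limma voom called none in the 3 genotype comparisons. The libraries of CnB1KO and WT overlapped for every one of the 7 genes in both sleep states, where 1.11% of all genes after deprivation and 2.55% after sleep were higher without overlap.

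Levels per length of transcript, from the deposited FPKM (fragments scaled to transcript length and to the mapped total), put Hmgcs1 first with 60.3 ± 5.47 FPKM (SD, n = 19 libraries of all groups). These values stand in a separate table for each group, so a level over all groups takes the tables to be processed alike. Sqle followed with 36.0 ± 3.88 FPKM, Idi1 with 27.5 ± 3.32 and Dhcr7 with 23.1 ± 2.98. Lss, Mvk and Mvd closed the order with 18.3 ± 3.04, 17.03 ± 2.11 and 15.5 ± 1.87 FPKM. Only the ranges of Hmgcs1 and Sqle were apart, while all lower neighbours overlapped over the libraries. Sqle stood above Idi1 in 19 of 19 libraries, Idi1 above Dhcr7 in 16, Dhcr7 above Lss in 18, Lss above Mvk in 14 and Mvk above Mvd in 16. The place of Idi1 is uncertain, since by counts per kilobase of exon it was the lowest of the 7 (32.1) and Mvd the third (109), after Hmgcs1 (215) and Sqle (134).

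Across libraries the enzymes varied together to different degrees. Over 19 libraries, which share their group, dissection and scaling, Pearson's r of log2 CPM between 2 of the genes had a median of 0.64 over 21 pairs. Mvd and Dhcr7 were the closest pair with r = 0.87, and Hmgcs1 and Idi1 the most distant with r = 0.13. As deviations from the group means the median r was 0.49, with Lss and Dhcr7 closest at r = 0.83. Single libraries were low or high for several genes at once. WT_SD6 library 8 was the lowest of its group for 5 of the 7 genes, WT_S6 library 4 for 4, CnB1KO_SD6 library 16 for 4 and CnB1KO_S6 library 14 for 4. WT_SD6 library 8 also had the lowest noradrenergic marker score of all libraries (5.38, against 6.149 to 6.874 in the rest of its group), and without it the 4 deprivation calls held. Over the 19 libraries the 8 noradrenergic markers had Pearson's r from 0.38 to 0.71 with the mean profile of the 7 enzymes.

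The gene whose log2 CPM was most like the mean of the 7 standardised profiles was Kif21b, which codes for a kinesin motor (Pearson's r = 0.92, Spearman's rho = 0.90, 19 libraries). It was followed by Cyp51 (r = 0.91), the lanosterol demethylase that acts right after Lss, then 2310022B05Rik and Carns1 (r = 0.90 each) and Scarb1 (r = 0.89), a receptor for HDL. Taken singly, Hmgcs1 was most like Rnf220 (r = 0.95), Mvk like Col11a2 (r = 0.86) and Mvd like Dhcr7 (r = 0.87). Idi1 was most like Sox8 (r = 0.90), Sqle like Rgmb (r = 0.97), Lss like the sterol carrier gene Stard4 (r = 0.91) and Dhcr7 like Kif21b (r = 0.91).

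Other enzymes of the chain did not pass with deprivation. Of 12 listed and measured, 0 passed with edgeR averaged over genotypes, 0 had an unadjusted p under 0.05, and DESeq2 and limma voom called 0. Their median log2 difference was -0.08, and 9 of 12 were negative. Among the 4 most abundant of these, Fdft1, the gene of squalene synthase, stood at -0.13 (SE 0.065, adjusted p = 0.341) and Cyp51 at -0.09 (SE 0.054, adjusted p = 0.468). Msmo1, whose enzyme takes part in removing methyl groups from the ring, stood at -0.07 (adjusted p = 0.616), and Sc5d, whose enzyme makes 7-dehydrocholesterol, the substrate of Dhcr7, at 0.01 (adjusted p = 0.952). Between genotypes averaged over sleep states, where 3.09% of all genes were called, 1 of the 12 passed. This was Tm7sf2, a sterol reductase gene, which was lower in CnB1KO (log2 -0.21, SE 0.054, adjusted p = 0.0443). That call was lost under 23 of 32 alternatives, upper-quartile scaling (adjusted p = 0.0527) among them. It held without WT_SD6 library 8 or 10, CnB1KO_S6 library 14 or CnB1KO_SD6 library 16 and was lost without any of the other 15 libraries.

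The genes that sense sterols did not pass either. Of 7 measured, 0 passed with deprivation averaged over genotypes by edgeR, DESeq2 or limma voom, 3 had an unadjusted p under 0.05, and the median was -0.07. Insig1, which holds SREBP in the endoplasmic reticulum and is itself an SREBP target, stood at -0.15 (SE 0.052, adjusted p = 0.113). Srebf1, which codes for SREBP1, was at -0.15 (SE 0.049, adjusted p = 0.0884), Srebf2, which codes for SREBP2, at -0.09 (adjusted p = 0.396) and the protease gene Mbtps1 at -0.07 (adjusted p = 0.125).

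Uptake and transport of cholesterol within the cell were covered by 10 listed genes, all with counts. With deprivation 0 of 10 passed by edgeR, DESeq2 or limma voom, 2 had an unadjusted p under 0.05, and the median was -0.03. The 2 were Scarb1 at -0.21 (SE 0.073, adjusted p = 0.115) and Stard4 at -0.13 (SE 0.047, adjusted p = 0.153). Of other abundant genes, Lrp1 stood at -0.05 (adjusted p = 0.735), Vldlr at -0.02 (adjusted p = 0.955) and Lrp8 at 0.01 (adjusted p = 0.961), all 3 lipoprotein receptors, and the lysosomal exporter Npc1 stood at -0.03 (adjusted p = 0.807). Between genotypes averaged over sleep states, where 3.09% of all genes were called, 1 of 10 passed. This was Npc2, which hands lysosomal cholesterol to Npc1 and was higher in CnB1KO (log2 0.16, SE 0.040, adjusted p = 0.0393). That call was lost under 20 of 32 alternatives, among them upper-quartile scaling (adjusted p = 0.0542). It held without WT_S6 library 1 or 2, WT_SD6 library 6, 8 or 10, CnB1KO_S6 library 11 or 14 or CnB1KO_SD6 library 16 and was lost without any of the other 11 libraries. Of 8 genes of export, esterification and turnover, 0 passed with deprivation by edgeR and 1 had an unadjusted p under 0.05. DESeq2 and limma voom each called 1 of these, Abca1, the exporter of cholesterol to apolipoproteins, which in edgeR was at 0.19 (SE 0.055, adjusted p = 0.0528). The fatty acid synthesis list, also under SREBP control, had 0 of 9 called by the 3 tools, 2 with an unadjusted p under 0.05 and a median of -0.05, with Fasn at -0.14 (adjusted p = 0.249).

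**Figure D3:**
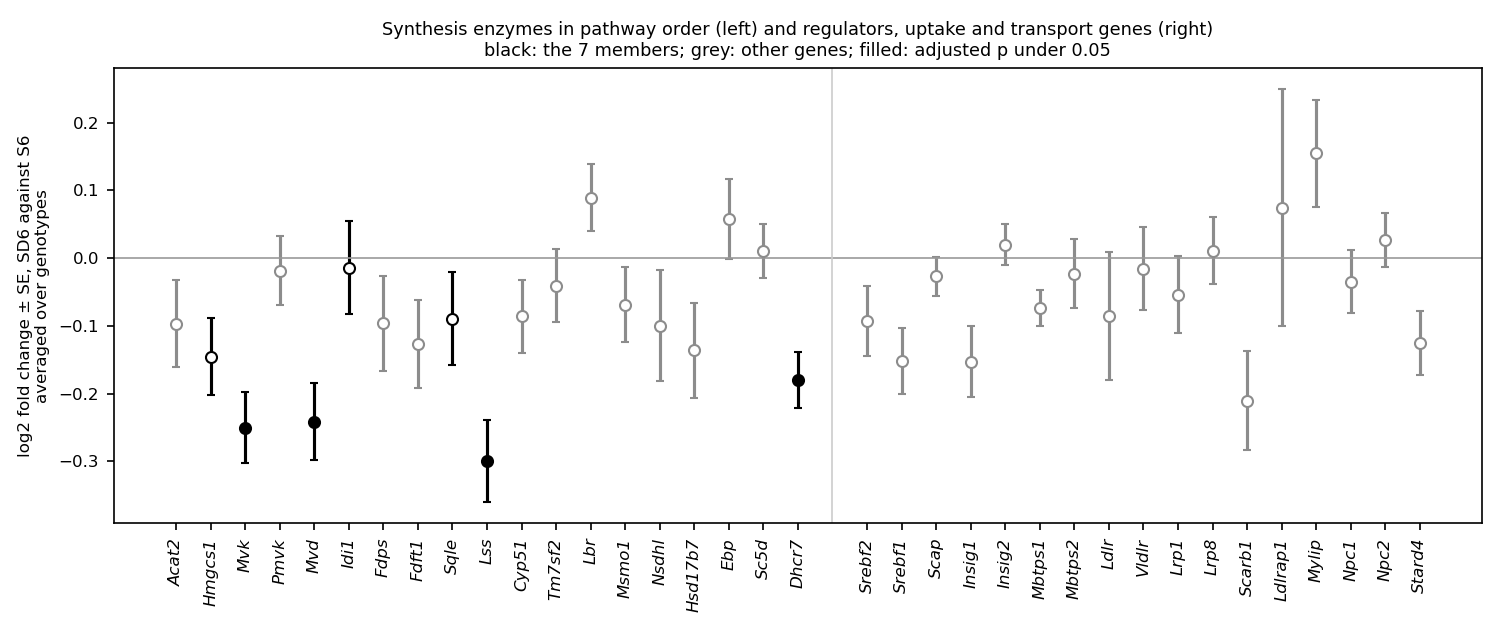
Log2 fold changes with SE bars (edgeR, SD6 against S6 averaged over genotypes) of the synthesis enzymes in the order of the chain and of regulator, uptake and transport genes to the right, black for the 7 enzymes described and filled where the adjusted p is under 0.05. Mvk, Mvd, Lss and Dhcr7 are filled, from -0.30 to -0.18, and none of the other enzymes shown or of the genes to the right is.

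Of 12 listed oligodendrocyte markers, 3 fell with deprivation averaged over genotypes, where 2.13% of all genes did, and 0 rose. The mean log2 CPM of the 12 ran from 6.98 to 7.30 in CnB1KO_SD6, against 7.09 to 7.61 in CnB1KO_S6, and from 6.82 to 7.07 in WT_SD6, against 7.10 to 7.31 in WT_S6. These ranges overlapped in CnB1KO and not in WT. Averaged over genotypes 11 of the 12 were negative with a median of -0.10, and none was at 0 counts. Within CnB1KO 1 of 12 passed, where 0.692% of all genes did, 8 were negative and the median was -0.05. Within WT 2 passed, where 1.14% of all genes did, 12 were negative and the median was -0.14. The 3 that fell in the average, named after their values were seen, were Opalin (log2 -1.08), Aspa (-0.46) and Mog (-0.22). The mean log2 CPM of the 7 enzymes was 5.83 ± 0.080 in CnB1KO_SD6, against 6.00 ± 0.064 in CnB1KO_S6 (SD, n = 5 each). In WT it was 5.73 ± 0.12 after deprivation (SD, n = 5), against 5.92 ± 0.11 after sleep (SD, n = 4). With the oligodendrocyte score as a covariate none of the 7 enzymes passed for deprivation averaged over genotypes. Lss was then at -0.23 (SE 0.074, adjusted p = 0.117), Mvk at -0.21 (SE 0.065, adjusted p = 0.101), Mvd at -0.16 (SE 0.067, adjusted p = 0.232) and Dhcr7 at -0.11 (SE 0.048, adjusted p = 0.246). Hmgcs1 moved to -0.04, Sqle to -0.02 and Idi1 to 0.08. Since the score was itself lower after deprivation, the covariate also takes out part of the deprivation contrast, and this fit cannot part the 2. The part of oligodendrocytes in the enzymes' levels was not tested.

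Markers of other cells were set beside the enzymes in the same way. The 11 astrocyte markers averaged 7.62 ± 0.035 and 7.58 ± 0.085 log2 CPM in CnB1KO_SD6 and CnB1KO_S6, and 7.55 ± 0.047 and 7.50 ± 0.047 in WT_SD6 and WT_S6. With that score as covariate Mvk, Mvd and Lss passed and Dhcr7 did not, at a similar size (log2 -0.16, SE 0.045, against -0.18 without the score). The 6 markers of cerebellar granule cells, neighbours of the nucleus, spread widely, from 2.86 to 7.55 log2 CPM in CnB1KO_SD6 and from 4.09 to 7.35 in CnB1KO_S6, and from 3.86 to 8.08 in WT_SD6 and from 5.73 to 7.74 in WT_S6. With the granule cell score as covariate, an alternative chosen after seeing the data, 5 of the 7 enzymes passed, with Hmgcs1 added at -0.16 (adjusted p = 0.039). With the log2 library total as covariate the 4 calls held. With averaged deprivation 2.13% of all genes were called lower and 4.69% in either direction. Of the remaining marker lists, 1 of 9 for microglia (Cx3cr1) and 1 of 4 for oligodendrocyte precursors (Enpp6) fell. A rise was called for 1 of 11 for astrocytes (Gjb6) and 1 of 7 for endothelium (Ly6c1). For neurons 0 of 8 and for noradrenergic cells 0 of 8 passed. The median of the noradrenergic markers was -0.04, and their part in the enzymes' levels was not tested. Between genotypes averaged over sleep states, 272 of 14443 genes were higher in CnB1KO and 3.09% were called in either direction. Higher in CnB1KO were 3 of 12 oligodendrocyte markers (Mag, Ermn and Ugt8a) and 2 of 9 for microglia (C1qa and C1qc). So were 4 of 7 for endothelium (Cldn5, Pecam1, Flt1 and Slco1a4). These markers were named after their values were seen, and the part of microglia and endothelium in the enzymes' levels was not tested.

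**Figure D4:**
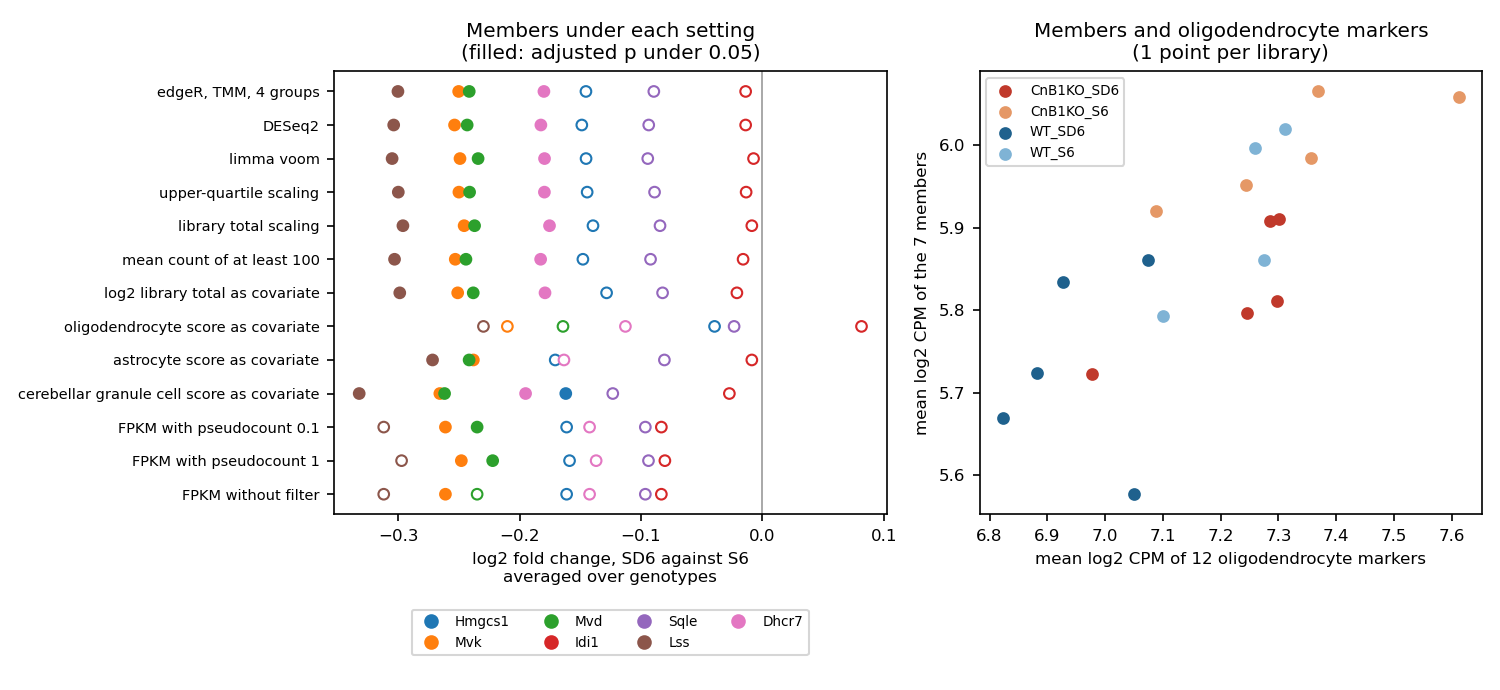
Left, log2 fold changes of the 7 genes, SD6 against S6 averaged over genotypes, under each way of processing (rows), filled where the adjusted p is under 0.05. Right, mean log2 CPM of the 7 genes against that of 12 oligodendrocyte markers, 1 point per library coloured by group: 4 genes are filled in the top row and none with the oligodendrocyte score as covariate in the left panel. In the right panel the marker values run from 6.82 in a WT_SD6 library to 7.61 in a CnB1KO_S6 library.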

How the data were processed

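The authors deposited whole-number counts per gene symbol for all 19 libraries and, in a table for each of the 4 groups (59380 to 62551 lines), FPKM of every library. Per the file headers, TPM columns stand beside the FPKM and were not used. Per the submitters' processing notes, which state neither role nor order, the tools were HTSeq 2.0.4, StringTie 2.2.1, SAMtools 1.6, Picard 2.18.29, Trim Galore 0.6.10 and FastQC 0.12.1, on the build GRCm38. Aligner, annotation release and treatment of duplicate reads: not given in the sources used here. Count columns carry a group and a running number, by which libraries are called here. The labels call the libraries biological replicates and give no batch, litter or day, so no comparison within batches was possible, and p-values cover the spread between these libraries.

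Counts were scaled by TMM and fitted with edgeR 4.0.16 in R 4.3.3 (quasi-likelihood F test, 1 fit of 4 groups, 15 residual degrees of freedom, no covariate), and p-values were adjusted by Benjamini-Hochberg over all 14443 genes, all of which passed filterByExpr. The fit was tested on simulated data with changes placed in WT_SD6 alone and scored for deprivation in WT. That test did not cover the averaged comparisons or changes as small as those called for the 7 enzymes. Alternatives were DESeq2 1.42.0, limma 3.58.1 (voom, and log2(FPKM + 0.1) or log2(FPKM + 1) with a mean FPKM of at least 0.5 or no filter), other scalings and filters, covariates, and leaving out each library. The members and lists were chosen with earlier results of these data known, and some genes of the lists are not reported here. Named are the 7 members, list genes that passed in any comparison, at most 4 abundant genes per list that did not pass, the 5 genes most like the mean of the members and the nearest gene of each member, and Ppp3r1. Gene positions are from GENCODE on GRCm38.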

Additional observations from a re-analysis of the deposited data

How the results depend on the processing

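Of the 7 enzymes, the 4 called with deprivation averaged over genotypes were 0 with the oligodendrocyte score as covariate, 3 with the astrocyte score, 5 with the granule cell score, 2 by FPKM with either pseudocount and 1 by FPKM without a filter. In WT, where 0 passed, DESeq2 called 1 and the granule cell score as covariate 2, and in CnB1KO that covariate gave 2. Calls over all genes moved between settings as well, from 214 to 1161 in the averaged comparison against 678 in the main fit. A changed count is therefore not shown to be particular to the 7 enzymes, and the cause was not tested. Without each library in turn the averaged count was 4 each time and that of the other comparisons 0 each time. Other alternatives left the counts as they were. Of these, the fit with no filter on counts could not differ, since all 14443 genes passed filterByExpr. It also stands among the alternatives counted for Tm7sf2 and Npc2. No paired analysis was possible because the count columns carry running library numbers and not the labels' replicate numbers.

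Some differences that did not pass changed sign. With the oligodendrocyte score these were Idi1 with deprivation (0.1312 in WT, 0.0321 in CnB1KO, 0.0816 averaged), Hmgcs1 between genotypes (-0.0083 after sleep, -0.0748 after deprivation, -0.0415 averaged), Lss (-0.0570 after deprivation, -0.0567 averaged), Mvd (-0.0033) and Dhcr7 (-0.0071) after deprivation, and the interactions of Hmgcs1 (-0.0664), Mvk (-0.0378), Mvd (-0.0561), Sqle (-0.0283) and Lss (-0.0005). With the library total as covariate Hmgcs1 between genotypes was -0.0188 after sleep, -0.0020 after deprivation and -0.0104 averaged, and the interaction of Idi1 0.0048 (0.0058 with library total scaling). The astrocyte score gave -0.0033 for Hmgcs1 and 0.0256 for Lss between genotypes after sleep. The granule cell score gave -0.0033 for Hmgcs1 after sleep, -0.0403 for Lss after deprivation and -0.0617 averaged, and interactions of -0.0104 for Mvk and -0.0003 for Mvd, and limma voom -0.0109 for Mvk. By FPKM (pseudocount 0.1, 1, and 0.1 unfiltered) Lss between genotypes after sleep was 0.0300, 0.0283 and 0.0300, Dhcr7 after deprivation -0.0530, -0.0515 and -0.0530, and the interaction of Lss -0.0273, -0.0258 and -0.0273.

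Without each library in turn, differences that changed sign ran, for Idi1 with deprivation, from -0.0493 to 0.0406 in WT, -0.0600 to 0.0502 in CnB1KO and -0.0372 to 0.0192 averaged. Between genotypes Hmgcs1 after sleep ran from -0.0374 to 0.0889, Lss after deprivation from -0.0097 to 0.0880 and Lss averaged from -0.0180 to 0.0316. Interactions ran from -0.0214 to 0.0990 for Hmgcs1, -0.0638 to 0.0539 for Mvk, -0.0442 to 0.0789 for Mvd, -0.0567 to 0.0618 for Idi1, -0.0552 to 0.0860 for Sqle and -0.0680 to 0.0173 for Dhcr7.

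Over all genes, the 678 calls with averaged deprivation were 214 to 1161 under other settings and 470 to 673 without a library. The 165 in WT were 24 to 399 and 78 (without WT_S6 library 2 or 4) to 176, and the 100 in CnB1KO 39 to 160 and 54 (without CnB1KO_SD6 library 18) to 134. Between genotypes the 447 averaged calls were 10 to 682 and 76 (without WT_S6 library 4) to 1088 (without CnB1KO_SD6 library 16), the 19 after deprivation 4 to 95 and 7 to 220 (without the same library), and the 7 after sleep 1 to 19 and 3 to 8. Depth limits Idi1 most, with 63 to 148 counts per library.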
